A study of Mus musculus with 6 samples.

Results

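Genes of phosphate handling and mineralization were examined in cultured preosteoblasts, the precursors of bone-forming osteoblasts, isolated at 3 days of age from mouse calvaria. The 7 genes were chosen by name for their role and are all among the 17001 rows of the deposited table. They are *Alpl* and *Phospho1* (phosphatases), *Smpd3* (a sphingomyelinase), *Enpp1* (the pyrophosphate-producing enzyme), *Slc20a1* and *Slc20a2* (sodium-phosphate cotransporters) and *Phex* (an endopeptidase). Poly(A) RNA was sequenced from 3 libraries with the genotype NELL2 fx/fx (control) and 3 libraries with the genotype Col1-cre; NELL2 fx/fx (cKO), and both genotypes carry the floxed alleles. Cre is driven by a fragment of the *Col1a1* promoter, which is active in the osteoblast lineage. No group carries Cre without floxed alleles, so an effect of Cre itself and an effect of the deletion cannot be told apart. The cells were grown in α-MEM with FBS, with no osteogenic induction named in the labels. Nothing in the labels says that libraries of a group came from separate litters or cultures, so p-values measure the spread between these libraries, which may be partly technical.

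Mineral forms when phosphate and calcium crystallize inside matrix vesicles, which bud from osteoblasts, and then spread along collagen. Pyrophosphate, made outside the cell by ENPP1 and exported through the product of *Ank*, blocks crystal growth. Tissue-nonspecific alkaline phosphatase, the product of *Alpl*, splits pyrophosphate and so both removes the inhibitor and supplies phosphate. PHOSPHO1 releases phosphate from phosphocholine within vesicles, and the sphingomyelinase encoded by *Smpd3* supplies that phosphocholine from membrane lipid. *Slc20a1* and *Slc20a2* encode PiT-1 and PiT-2, which carry phosphate into cells, and PHEX acts in osteocytes to restrain the phosphate-lowering hormone FGF23.

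Of the 7 genes, *Alpl* and *Phospho1* were lower in all 3 cKO libraries than in all 3 controls, and *Slc20a2* was higher in all 3. The other 4 genes overlapped between the groups. None of these differences passed adjustment over all genes. Values are FPKM, which divides the fragments of a gene by its transcript length and by the size of the library, so levels can be compared between genes. Groups were compared on log2(FPKM + 1) with limma, adjusting p-values by Benjamini-Hochberg over the 11590 rows that reached 1 FPKM in 3 or more libraries. On this scale fold changes of low genes are understated. Of the 7 genes 5 passed this filter, and *Smpd3* and *Phex* did not. With an adjusted p under 0.05, 0 of the 5 were called, and the share called over all tested genes was 0% (0 genes, with 1521 at an unadjusted p under 0.05). Without cKO replicate 1 alone, 334 genes of the whole table were called, none of them among the 7. An unadjusted p under 0.05 was reached by 3 of the 5, 2 of them lower and 1 higher in cKO, against 13.1% of all tested genes (7.76% lower and 5.37% higher). The same 3 genes, those whose groups did not overlap, compare with 18.3% of all tested genes in either direction, 11.8% for lower and 6.51% for higher in cKO.

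Facts about the libraries bear on each value. Their FPKM values summed to between 573307 and 606428, and the read depth behind them is not known. *Nell2*, the targeted gene, showed no loss under its cKO label, being 5.64, 1.61 and 5.74 FPKM there against 3.17, 2.59 and 1.88 in controls (adjusted p = 0.591 from limma), so directions follow the labels. A gene-level FPKM does not separate the floxed part from the rest of the gene. The study reports the deletion in calvarial preosteoblasts from qRT-PCR and western blotting, which are not part of these libraries. Y-linked genes were expressed in control replicate 3 and cKO replicates 1 and 3 only, with a summed FPKM of 49.6 to 54.7 against at most 0.29 in the other libraries. Each group thus held libraries with and without male cells, so its libraries were not all repeats of a single cell preparation. In bulk RNA, fewer cells of a type and less RNA per cell cannot be told apart.

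**Figure D1:**
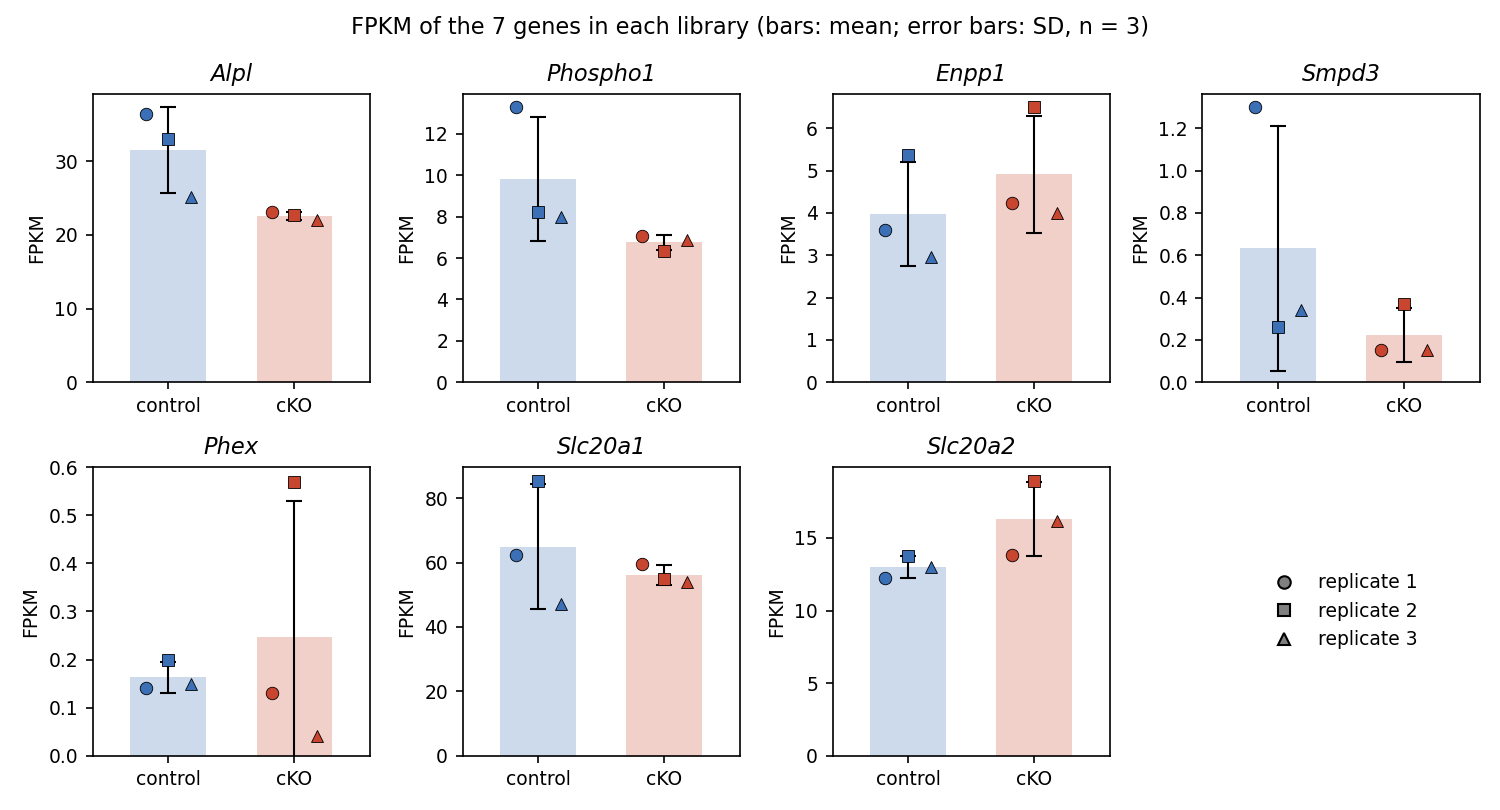
FPKM (vertical axis, from 0) of each of the 7 genes in the 3 control (blue) and 3 cKO (red) libraries, with a marker shape per replicate number, bars at the mean and error bars of 1 SD (n = 3; that of *Phex* is cut at 0). *Alpl* and *Phospho1* lie lower in every cKO library than in any control, *Slc20a2* lies higher, and single libraries stand far above the rest for *Smpd3* (control replicate 1) and *Phex* (cKO replicate 2).

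The levels spanned from *Slc20a1*, with a mean over the 6 libraries of 60.6 FPKM and above 92% of all rows of the table, down to *Phex* at 0.205 FPKM. *Alpl* followed *Slc20a1* at 27.1 FPKM, then *Slc20a2* at 14.7 FPKM and *Phospho1* at 8.29 FPKM, with *Enpp1* at 4.44 FPKM and *Smpd3* at 0.428 FPKM. *Slc20a1* was above *Alpl*, *Alpl* above *Slc20a2* and *Enpp1* above *Smpd3* in 6 of 6 libraries, with ranges that did not touch. *Slc20a2* was above *Phospho1*, *Phospho1* above *Enpp1* and *Smpd3* above *Phex* in 5 of 6 libraries, so these neighbours in the order overlapped.

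*Alpl*, the marker enzyme of the early osteoblast, is a minus-strand gene at chr4:137741733-137796384 (GRCm38, GENCODE release M21, as for all gene positions given). It had 36.44, 33.08 and 25.15 FPKM in control replicates 1, 2 and 3. In cKO replicates 1, 2 and 3 it was 23.09, 22.65 and 22.03. Control replicate 3 stood closest to the cKO libraries, which varied little among themselves. The mean was 31.6 ± 5.8 (SD, n = 3) in controls and 22.6 ± 0.533 (SD, n = 3) in cKO, a ratio of means of 0.716. The log2 fold change was -0.45 (standard error 0.13, adjusted p = 0.312, limma). Its 95% interval, for this gene alone and not adjusted over all genes, ran from 0.591 to 0.908 as a fold. Among libraries without Y-linked expression the values were 36.44 and 33.08 in controls and 22.65 in cKO (log2 difference -0.59). Among those with it they were 25.15 in control and 23.09 and 22.03 in cKO (log2 difference -0.15). Each of these sets had 1 library in one of its groups, and since the groups did not overlap the direction within them was fixed.

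The study lists a quantitative PCR primer pair for this gene, shown because it places the study's assay within the transcript, printed 5′ to 3′ in lower case.
Alp forward: ccagaaagacaccttgactgtgg
Alp reverse: tcttgtccgtgtcgctcaccat
The forward primer matched the coding part of exon 10 of transcript Alpl-201 (chr4:137743701-137743723) and the reverse primer that of exon 11 (chr4:137743272-137743293), spanning 122 bases of the transcript. The gene-level FPKM instead covers the whole gene, including both of its start sites in RefSeq (GRCm38.p6), at 137796384 and 137766475, and does not tell them apart.

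*Phospho1*, the vesicle phosphatase, is a plus-strand gene at chr11:95824499-95832140. This span also overlaps annotations of *Zfp652* on the same strand and *Abi3* on the other. Strand would not separate reads in the overlap with *Zfp652*. Whether strand was used in counting is not given, so reads in the overlap with *Abi3* cannot be told apart either. It had 13.29, 8.24 and 7.97 FPKM in control replicates 1, 2 and 3. It was 7.08, 6.33 and 6.85 in cKO replicates 1, 2 and 3. Control replicate 1 stood well above the other controls, which were close to the highest cKO library. The mean was 9.83 ± 3.0 (SD, n = 3) in controls and 6.75 ± 0.384 (SD, n = 3) in cKO, a ratio of means of 0.687. The log2 fold change was -0.45 (standard error 0.18, adjusted p = 0.363, limma). Without control replicate 1 it was -0.23. The log2 difference was -0.65 among libraries without Y-linked expression and -0.17 among those with it.

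The bases before the start sites of *Alpl*, *Phospho1* and *Enpp1* are shown, the enzymes that release phosphate or make pyrophosphate. These 3 were picked after their values were seen, and none of their differences passed adjustment. Whether the sequences bear on the levels was not tested. For *Alpl*, the first of its 2 RefSeq starts is shown. The 250 bases before the start (GRCm38.p6) are printed 5′ to 3′ on the gene's strand. Capitals mark the letters of the RUNX site TGTGGT, the E-box CACGTG or the GC box GGGCGG on either strand, and adjoining matches run together.
Alpl, chr4:137796385-137796634, minus strand: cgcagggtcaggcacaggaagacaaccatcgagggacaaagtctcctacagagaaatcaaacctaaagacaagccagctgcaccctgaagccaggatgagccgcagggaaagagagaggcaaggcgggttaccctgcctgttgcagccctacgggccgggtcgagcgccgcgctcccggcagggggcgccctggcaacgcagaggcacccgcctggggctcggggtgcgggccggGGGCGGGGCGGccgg
Phospho1, chr11:95824250-95824499, plus strand: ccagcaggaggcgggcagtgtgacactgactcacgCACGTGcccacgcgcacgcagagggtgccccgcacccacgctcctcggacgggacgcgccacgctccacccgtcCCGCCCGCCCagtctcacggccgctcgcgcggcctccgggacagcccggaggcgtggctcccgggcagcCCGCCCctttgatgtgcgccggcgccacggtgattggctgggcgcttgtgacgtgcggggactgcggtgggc
Enpp1, chr10:24712160-24712409, minus strand: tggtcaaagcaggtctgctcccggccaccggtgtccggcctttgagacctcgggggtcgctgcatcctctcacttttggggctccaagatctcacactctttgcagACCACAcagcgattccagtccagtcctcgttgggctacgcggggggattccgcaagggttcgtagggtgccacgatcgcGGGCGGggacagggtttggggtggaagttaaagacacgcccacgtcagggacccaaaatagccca
The printed *Alpl* window held 2 GC boxes and neither other motif, while that of its second start (chr4:137766476-137766725, not printed) held none of the 3 motifs. The *Phospho1* window held 3 GC boxes and 1 E-box, and the *Enpp1* window 1 GC box and 1 RUNX site. Over all 32851 windows of this length, 32.7% held a GC box, 14.0% the RUNX letters and 6.02% the E-box. The first *Slc20a1* window, not printed, held 1 RUNX site, 2 E-boxes and 2 GC boxes, and the second only 1 GC box. Bases just after that second start were not found in the GENCODE transcripts of the gene, unlike those of the other windows described. The *Phex* window, also not printed, held none of the 3 motifs. These matches describe letters and say nothing of whether a factor bound there.

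*Smpd3*, the neutral sphingomyelinase, is a minus-strand gene at chr8:106252548-106337988, where *Prmt7* overlaps it on the other strand. The study displayed it as an osteogenic gene chosen from these same libraries, so its direction is not independent evidence. It had 1.3, 0.26 and 0.34 FPKM in control replicates 1, 2 and 3. It was 0.15, 0.37 and 0.15 in cKO replicates 1, 2 and 3. Control replicate 1 alone exceeded 1 FPKM, and cKO replicate 2 was above both other controls. The mean was 0.633 ± 0.579 (SD, n = 3) in controls and 0.223 ± 0.127 (SD, n = 3) in cKO. A two-sided exact permutation test over the libraries gave p = 0.3, where 3 libraries against 3 cannot go below 0.1. The difference on log2(FPKM + 1) was -0.37, and -0.09 without control replicate 1.

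*Enpp1*, a minus-strand gene at chr10:24637914-24712159, makes pyrophosphate from nucleotides. It had 3.6, 5.36 and 2.97 FPKM in control replicates 1, 2 and 3. In cKO replicates 1, 2 and 3 it was 4.24, 6.5 and 3.99. Replicate 2 was the highest library of each group, and the groups overlapped. The mean was 3.98 ± 1.24 (SD, n = 3) in controls and 4.91 ± 1.38 (SD, n = 3) in cKO. The log2 fold change was 0.25 (standard error 0.21, adjusted p = 0.626, limma). Its 95% interval, also not adjusted over all genes, ran from 0.836 to 1.70 as a fold. A difference in either direction within those bounds could not be told from none. The log2 fold change was 0.07 without cKO replicate 2, 0.10 without control replicate 3 and 0.44 without control replicate 2.

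Since *Alpl* removes and *Enpp1* produces pyrophosphate, their ratio of FPKM was taken within each library. *Alpl* exceeded *Enpp1* 10.1, 6.17 and 8.47 times in control replicates 1, 2 and 3. It exceeded it 5.45, 3.48 and 5.52 times in cKO replicates 1, 2 and 3. All 3 cKO ratios lay below all 3 control ratios, as the values of *Alpl* alone already did, while *Enpp1* alone overlapped. How often ratios of other genes separate in this way was not computed. On the log2 scale the ratio was 3.02 ± 0.36 (SD, n = 3) in controls and 2.24 ± 0.38 (SD, n = 3) in cKO, a difference of -0.78, given as a description with no test.

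**Figure D2:**
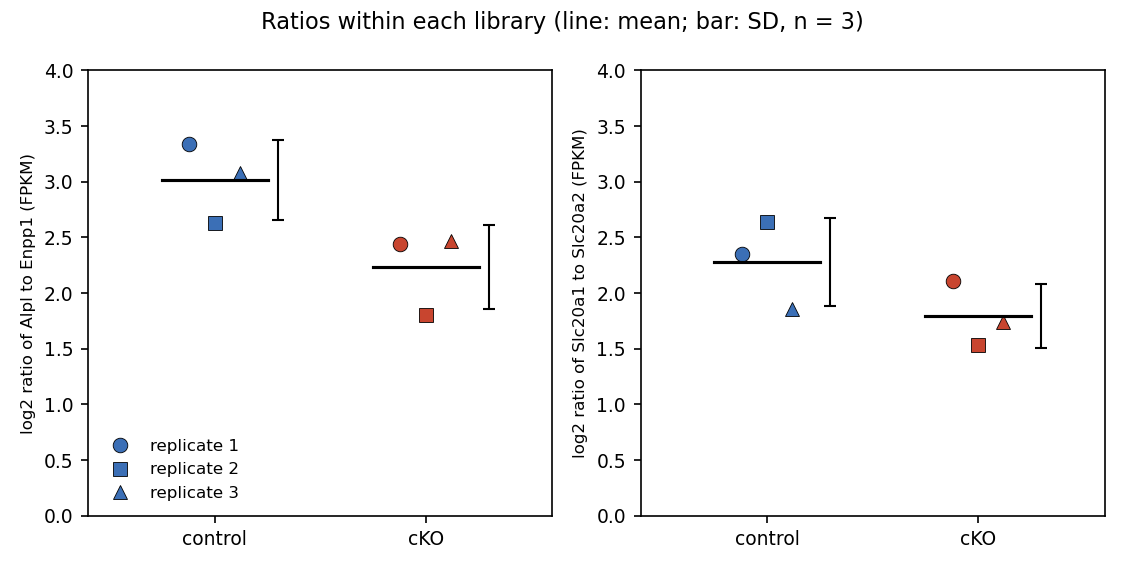
Log2 ratio of FPKM (vertical axes) of *Alpl* to *Enpp1* (left) and of *Slc20a1* to *Slc20a2* (right) within each control (blue) and cKO (red) library, with lines at the mean and bars of 1 SD (n = 3). The ratio of *Alpl* to *Enpp1* is lower in each cKO library than in any control, whereas the transporter ratio overlaps.

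Both phosphate importers were well expressed, and their differences had opposite signs. *Slc20a1* (chr2:129198764-129211616, plus strand) had 62.47, 85.44 and 47.03 FPKM in control replicates 1, 2 and 3. It had 59.53, 54.87 and 53.97 in cKO replicates 1, 2 and 3. The cKO values all fell inside the wide control range. The means were 65.0 ± 19.3 and 56.1 ± 2.98 (SD, n = 3 each), and on the log2 scale cKO minus control was -0.17 (standard error 0.20, adjusted p = 0.727, limma). The sign turned to 0.05 without control replicate 2. The log2 difference was -0.41 among libraries without Y-linked expression and 0.26 among those with it, so it had no direction that held within both sets.

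*Slc20a2* (chr8:22476788-22569612, plus strand, overlapping *Smim19* on the other strand) had 12.27, 13.73 and 12.99 FPKM in control replicates 1, 2 and 3. It had 13.81, 18.94 and 16.19 in cKO replicates 1, 2 and 3. The lowest cKO library was only just above the highest control. The means were 13.0 ± 0.73 and 16.3 ± 2.57 (SD, n = 3 each), a ratio of 1.26, and on the log2 scale cKO minus control was 0.30 (standard error 0.11, adjusted p = 0.348, limma). The log2 difference was 0.51 among libraries without Y-linked expression and 0.19 among those with it. The log2 ratio of *Slc20a1* to *Slc20a2* was 2.28 ± 0.40 in controls and 1.79 ± 0.29 in cKO (SD, n = 3 each), with overlapping libraries.

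*Phex*, a minus-strand gene at chrX:157162075-157415312, is mainly a gene of osteocytes, the cells embedded in bone. It had 0.14, 0.2 and 0.15 FPKM in control replicates 1, 2 and 3. It was 0.13, 0.57 and 0.04 in cKO replicates 1, 2 and 3. Only cKO replicate 2 stood out, and the groups overlapped (exact permutation test, two-sided, p = 1). *Dmp1*, an osteocyte matrix protein, was also highest in that library, at 9.32 FPKM against 0.06 and 0.21 in the other cKO libraries and 2.31, 0.58 and 0.38 in controls. *Mepe*, on the same lists and named after its values were seen, went the other way, at 0 FPKM in that library. It read 0.15 and 0.11 in the other cKO libraries and 0.26, 0.04 and 0.04 in controls. *Sost*, on the osteoblast lineage list, was not matched. *Fgf23* itself read 0 in 4 of the 6 libraries, and its highest FPKM was 0.13.

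**Figure D3:**
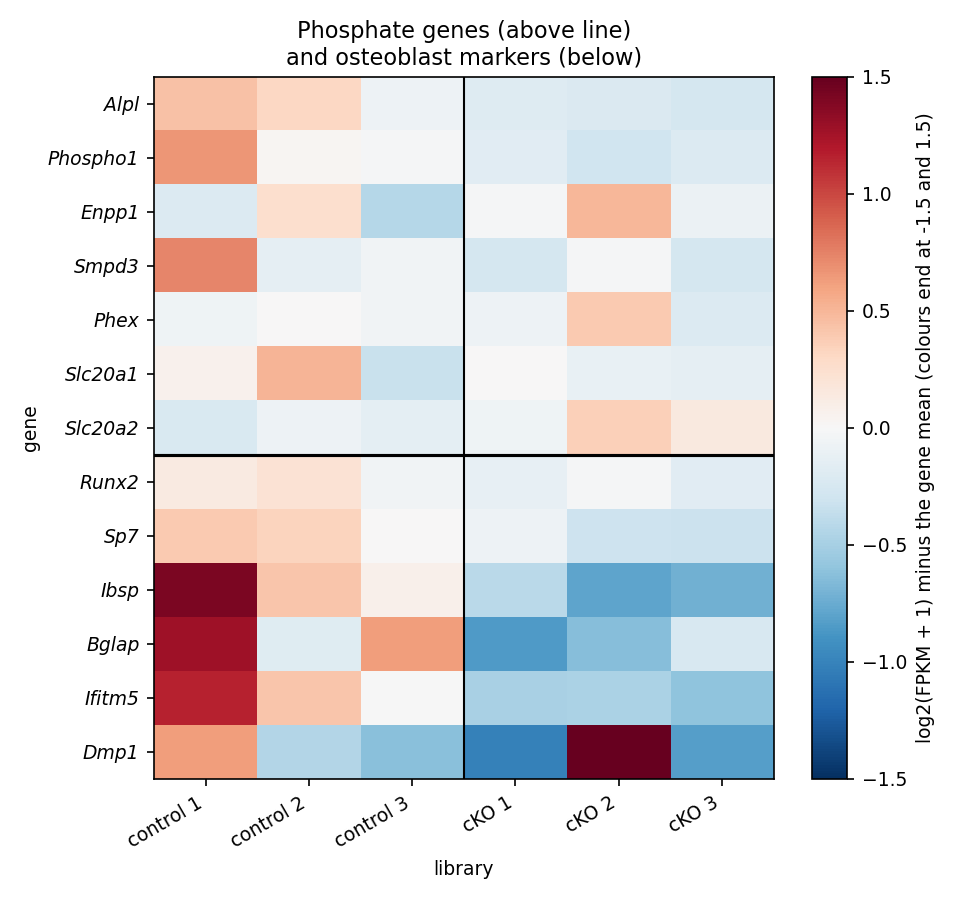
Log2(FPKM + 1) minus the mean of the gene over the 6 libraries (colour scale) for the 7 phosphate genes (above the line) and 6 osteoblast lineage markers (below), by library (columns). Control replicate 1 is the highest library for *Alpl*, *Phospho1* and *Smpd3* and for *Sp7*, *Ibsp*, *Bglap* and *Ifitm5*. *Slc20a1* and *Runx2* peak in control replicate 2, and *Enpp1*, *Slc20a2*, *Phex* and *Dmp1* in cKO replicate 2. *Col1a1* and *Col1a2* of the same marker list, with log2 fold changes of -0.01 and 0.04, are not shown.

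Of the 7 tested markers of the osteoblast lineage 6 had a lower mean in cKO and 0 passed adjustment. Over all 11590 tested genes 6462 had a lower mean. Groups did not overlap for 4 of the markers (*Sp7*, *Ibsp*, *Bglap* and *Ifitm5*), all lower, against 11.8% of all tested genes for lower. *Runx2*, *Col1a1* and *Col1a2* overlapped. The list had a median log2 fold change of -0.48 against -0.02 over all tested genes. *Sp7*, the transcription factor osterix, was 17.57, 16.86 and 13.2 FPKM in control replicates 1, 2 and 3 and 12.44, 10.4 and 10.31 FPKM in cKO replicates 1, 2 and 3. *Ibsp*, bone sialoprotein, was 123.86, 61.9 and 48.79 FPKM in controls and 34.64, 26.17 and 27.65 FPKM in cKO. The study displayed *Ibsp* and *Ifitm5* from these same libraries, so they are not independent evidence. *Col1a1*, by contrast, differed little, with 8300 ± 264 FPKM in controls and 8246 ± 145 FPKM in cKO (SD, n = 3 each, log2 fold change -0.01). The labelled cell type was thus met by part of the list, with high type I collagen together with *Runx2* and *Sp7*. *Bglap* and *Ifitm5* were low, at 3.57 and 1.53 FPKM over the 6 libraries. *Dmp1* did not pass the filter and *Sost* was not matched. The part of these markers in the *Alpl* and *Phospho1* values was not tested.

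Other cell types were checked with lists of markers. Over all 11590 tested genes 5128 had a higher mean in cKO, and 6.51% were higher without overlap. Epithelial markers were higher in cKO, none past adjustment, with a summed FPKM of 0.46 to 13.2 in controls and 15.9 to 42.5 in cKO over the 4 genes, 3 of 3 tested being higher. The summed level of 5 adipocyte markers was 16.8 to 25.5 in controls and 53.2 to 89.6 in cKO, nearly all from *Fabp4*, a gene the study also displayed from these libraries, with *Plin1* at most 0.1 FPKM. Both tested adipocyte markers, *Fabp4* and *Pparg*, were higher in every cKO library than in any control, *Pparg* at 2.53, 2.4 and 3.01 FPKM in controls and 3.45, 4.13 and 3.39 FPKM in cKO (adjusted p = 0.312, limma). The summed level of 5 chondrocyte markers was 89.6 to 152 in controls and 130 to 163 in cKO, mostly from *Col2a1* at 109 FPKM over the 6 libraries, with *Matn1* at most 0.03 FPKM. All 4 tested chondrocyte markers had a higher mean in cKO (median log2 fold change 0.34, none past adjustment), and *Col9a1* did not overlap, at 11.9 ± 1.97 FPKM in controls and 16.7 ± 2.85 FPKM in cKO (SD, n = 3 each). Macrophage markers (7 genes, 33.8 to 92.8 in controls and 46.1 to 75.3 in cKO), muscle markers (5 genes, 29.8 to 55.0 and 40.6 to 47.0) and endothelial markers (5 genes, 1.84 to 3.87 and 1.84 to 3.40) overlapped. The part of these cells in the values of the phosphate genes was not tested.

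The wider pathway was followed in 6 lists of genes, and 0 genes of any list passed adjustment. Groups did not overlap for 4 of the 14 tested genes of pyrophosphate and nucleotides, 2 of 7 of phosphate export and hormones, 0 of 17 of phospholipids and choline, 3 of 12 of zinc and GPI anchors, 4 of 9 of vesicle calcium handling and 2 of 5 mineral-binding proteins, against 18.3% of all tested genes. Of the 18 genes of pyrophosphate and extracellular nucleotides 17 were matched and 14 tested, with 6 higher and 8 lower and a median log2 fold change of -0.02. The intracellular pyrophosphatases *Ppa1* (log2 fold change -0.10) and *Ppa2* (0.09) and the phosphatase *Acp1* (-0.02) were the highest of this list and differed little. *Entpd2*, an ectonucleotidase that breaks down ATP, had the largest difference among the tested genes. It was 3.44, 3.08 and 4.39 FPKM in control replicates 1, 2 and 3 and 4.9, 7.39 and 7.5 FPKM in cKO replicates 1, 2 and 3 (log2 fold change 0.70, standard error 0.17, adjusted p = 0.312, limma). *Ank*, the pyrophosphate exporter, named outside the rule for named genes after its values were seen, had a log2 fold change of -0.14 (adjusted p = 0.581, limma).

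Among 16 genes of phosphate export, sensing and hormones 13 were matched and 7 tested, 3 higher and 4 lower, with a median log2 fold change of -0.15. *Slc25a3*, the mitochondrial phosphate carrier, was 296 ± 19.8 FPKM in controls and 265 ± 15.4 FPKM in cKO (SD, n = 3 each), and its groups did not overlap. *Fgfr1*, the receptor through which FGF23 signals with klotho, was 97.4 ± 5.69 FPKM in controls and 86.7 ± 3.72 FPKM in cKO, also without overlap. *Pth1r*, the parathyroid hormone receptor, had a log2 fold change of -0.24 and *Galnt3*, whose product protects FGF23 from cleavage, -0.29, the largest of the 7 tested genes of the list. Their adjusted p-values lay between 0.380 and 0.477 (limma). *Kl*, which encodes klotho, was at most 0.03 FPKM.

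Among 17 genes of phospholipid and choline supply, all tested, 8 were higher and 9 lower, with a median log2 fold change of 0.00. *Asah1*, acid ceramidase, was the highest at 113 FPKM over the 6 libraries, followed by *Slc44a2* at 57.3 FPKM. The acid sphingomyelinase *Smpd1* had 40.5 FPKM, far above the 0.428 FPKM of *Smpd3*. *Sgms2*, a sphingomyelin synthase, had the largest log2 fold change, -0.24 (adjusted p = 0.477, limma).

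Alkaline phosphatase needs zinc and a GPI anchor, and of 13 genes of these supplies 12 were tested, 6 higher and 6 lower, with a median log2 fold change of 0.00. The zinc transporters *Slc39a13* (53.4 FPKM), *Slc30a5* (28.0 FPKM) and *Slc39a14* (24.3 FPKM) were the highest. *Slc30a5*, which loads zinc into the secretory pathway, had a log2 fold change of -0.17 (adjusted p = 0.395, limma). *Pgap3*, which remodels GPI anchors, had the largest, 0.32, with 2.86 ± 0.221 FPKM in controls and 3.81 ± 0.221 FPKM in cKO (SD, n = 3 each, adjusted p = 0.312, limma).

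Of 11 genes of matrix vesicle calcium handling 9 were tested, 3 higher and 6 lower, with a median log2 fold change of -0.07. The annexins, calcium-dependent phospholipid-binding proteins abundant in matrix vesicles, were led by *Anxa2* at 905 FPKM, *Anxa5* at 521 FPKM and *Anxa1* at 375 FPKM over the 6 libraries. Their log2 fold changes were -0.07, -0.11 and -0.10. *Car12*, a membrane carbonic anhydrase, had the largest, 0.34 (standard error 0.26, adjusted p = 0.594, limma). Among 8 mineral-binding matrix proteins 5 were tested, 2 higher and 3 lower. *Spp1*, osteopontin, had 1708 FPKM over the 6 libraries and a log2 fold change of 0.12. *Mgp*, an inhibitor of calcification, had 0.63 (adjusted p = 0.381, limma), with 429.07, 784.69 and 797.11 FPKM in controls and 779.62, 1130.47 and 1128.22 FPKM in cKO. The median of this list was -0.34, and the largest difference was that of *Ibsp*, which with *Bglap* is also on the osteoblast list, at -1.27 (adjusted p = 0.312, limma).

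**Figure D4:**
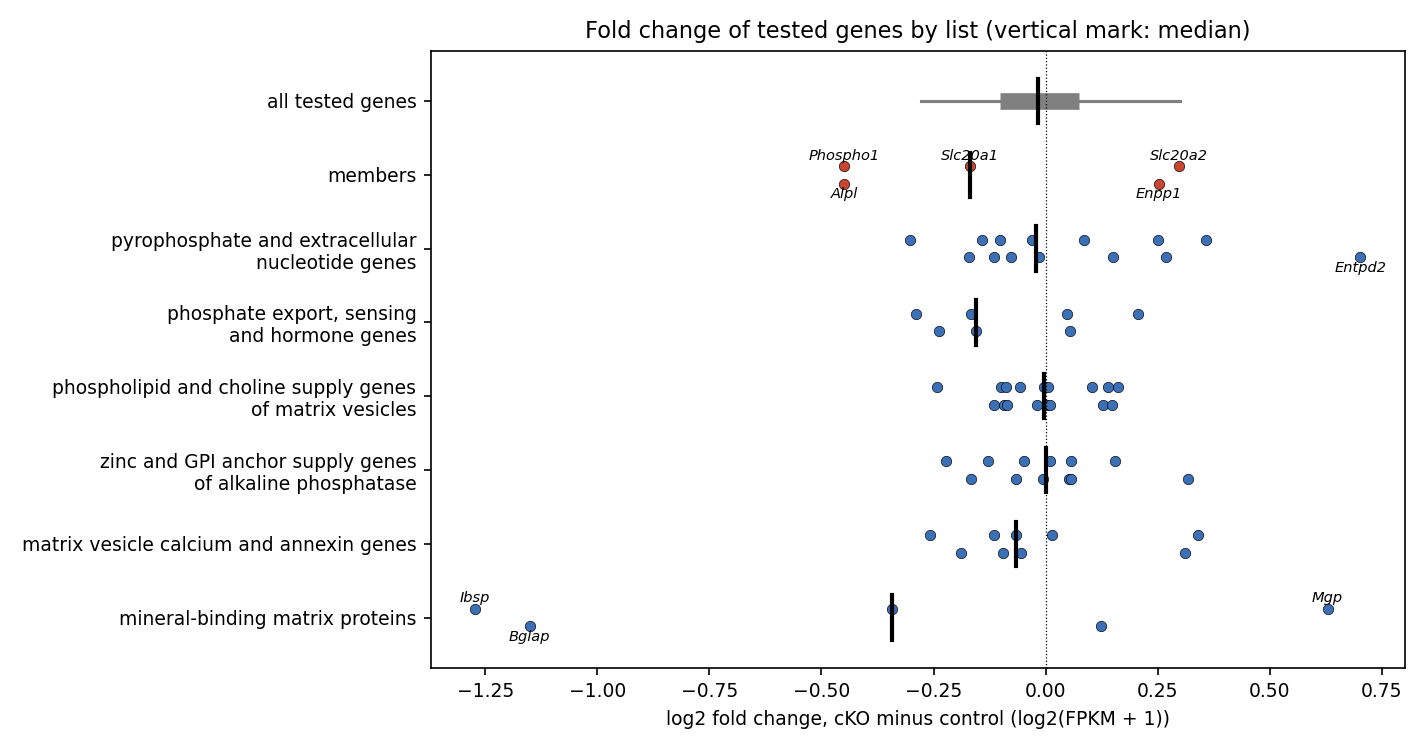
Log2 fold change, cKO minus control, on the log2(FPKM + 1) scale (horizontal axis) of the 5 tested phosphate genes (red) and of the tested genes of 6 related lists (blue), with black marks at the medians. The grey bar spans the 25th to 75th and the grey line the 5th to 95th percentile of all tested genes, from -0.28 to 0.30. *Alpl* and *Phospho1* lie below that span at -0.45, while the list medians lie between -0.34 (mineral-binding proteins) and 0.00. Single genes of the related lists also lie outside the span, among them *Ibsp* (-1.27), *Entpd2* (0.70) and *Mgp* (0.63).

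Across the 6 libraries *Alpl* and *Phospho1* had similar patterns on log2(FPKM + 1), with a Pearson correlation of 0.88, and *Slc20a2* and *Enpp1* one of 0.72. *Slc20a2* ran against *Phospho1*, with a correlation of -0.74. The points share the 2 groups and the library composition, and these are descriptions over 6 libraries. Over all tested genes, those most like *Alpl* were *Eif2b5*, *Pxdc1* and *Tcf12*, with correlations of 0.988 to 0.998, and those most like *Phospho1* were *Col26a1*, *Mydgf* and *Itgb5*, at 0.98. For *Slc20a2* they were *G0s2*, *Mbip* and *Fgl2*, at 0.99, for *Slc20a1* *Ubr4*, *Exoc6b* and *Cnot1*, at 0.98 to 0.99, and for *Enpp1* *Ppfia1*, *Nudt6* and *Setd6*, at 0.975 to 0.998. Between 12 and 82 of the tested genes reached a correlation of at least 0.95 with each of these 5 genes. The named genes were picked as the highest of all tested genes, and over 6 libraries such picking alone favours high correlations.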

How the data were processed

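Per the labels and the study's methods, poly(A) RNA was sequenced as 150 bp paired-end reads, mapped to the mouse transcriptome with HISAT2 and normalized with DESeq, with the build GRCm38 in the submitters' processing notes. The authors deposited FPKM values with 2 decimals, in rows by gene symbol, and the annotation and FPKM program are not given in the sources used here. Read depth is not known: only 1 to 9 rows per library allowed relative depth to be compared, so no counting interval was computed.

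The 7 genes were found by symbol. log2(FPKM + 1) was compared with limma 3.58.1 in R 4.3.3 over 11590 rows reaching 1 FPKM in 3 or more libraries. Genes under that filter were compared with a two-sided exact permutation test over libraries. Members and lists were chosen with earlier results of these data known. From each list, the 3 highest genes and the one with the largest difference were named, and for each tested member the 3 genes with the most similar pattern. limma was tested on simulated data. Alternatives were the pseudocount, filter, scaling, variance trend, replicate block, a Y-linked covariate and each library left out. Locations are from GENCODE release M21 and promoter windows from RefSeq, for 5 of the 7 genes.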

Additional observations from a re-analysis of the deposited data

How the results depend on the processing

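The number of these genes with an adjusted p under 0.05 (limma) was 0 in all 13 alternatives. The directions of *Alpl*, *Phospho1*, *Enpp1*, *Smpd3*, *Slc20a2* and both ratios held in each alternative run for them. Groups did not overlap for *Alpl*, *Phospho1*, *Slc20a2* and the ratio of *Alpl* to *Enpp1*. Leaving out a library could therefore not turn the direction of these, and for the genes among them neither could the other pseudocount. The replicate block, the variance trend and dropping the filter leave every fold change as it was, so they are no check of direction. Leaving out single libraries, the log2 difference between groups for *Alpl* ran from -0.60 to -0.34, of *Phospho1* from -0.57 to -0.23, of *Enpp1* from 0.07 to 0.44, of *Slc20a2* from 0.19 to 0.40 and of *Smpd3* from -0.53 to -0.09. *Slc20a1* ran from -0.38 to 0.05, with 0.048 without control replicate 2, and *Phex* from -0.10 to 0.20, with -0.10 without cKO replicate 2. The number of members whose groups did not overlap ran from 3 to 5 and was 5 without cKO replicate 2, where a group of 2 overlaps less readily. Genes called over the whole table ran from 0 to 334, with 334 without cKO replicate 1 and 2 without control replicate 3. Genes called in the 6 lists ran from 0 to 2, *Entpd2* and *Nt5e* without cKO replicate 1 (*Nt5e* named after its values were seen). The cause was not tested.

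Deviations of same-numbered libraries from their group means correlated at 0.03, -0.17 and 0.21. Control replicates 1 and 3, but not 2, correlated best with the cKO library of their own number. With 3 libraries per group this cannot settle whether the replicate numbers pair the libraries. With the replicate block 0 genes were called, and the adjusted p (limma) was 0.296 for *Alpl* and 0.334 for *Enpp1*. The log2 fold change of *Enpp1* stayed at 0.25, which the block leaves as it was. Its standard error went from 0.21 to 0.07 and its unadjusted p from 0.280 to 0.017 (limma). With the Y-linked covariate the log2 fold change was -0.37 for *Alpl*, -0.41 for *Phospho1*, 0.42 for *Enpp1* and 0.35 for *Slc20a2*. With a pseudocount of 0.1 that of *Smpd3* was -0.97.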
